A study of Mus musculus with 24 samples.

Results

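Cytosolic ribosomal protein genes encode the protein part of the ribosomes that translate nuclear mRNAs. They were taken here as the genes whose only array symbol was Rpl or Rps followed by a number, or Rpsa, Rplp0, Rplp1 or Rplp2. Kinases of ribosomal protein S6, Rps19bp1 and pseudogenes were left out, and each gene was read by its probe set with the highest mean. This gave 49 genes of the 18193 with a probe set of a single symbol. They comprise 24 of the large subunit, 23 of the small subunit and 2 of the stalk, a flexible arm of the large subunit that recruits translation factors. Among them are 6 paralogs, extra copies or relatives of a ribosomal protein gene (Rpl3l, Rpl7l1, Rpl22l1, Rpl39l, Rps4l and Rps27l), and 11 genes mutated in Diamond-Blackfan anaemia, an inherited failure of red cell production. A further 31 genes of the family, among them Rpl5, Rpl3, Rpl10 and Rplp1, were seen by probe sets that carry several symbols and were not analysed here.

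RNA was measured in sorted blood progenitors of 2 genotypes: wild type (WT), and a null for Ikaros (KO), a zinc finger DNA-binding protein that lymphoid cells need. Cells were sorted on the stem cell markers that define LSK cells (Lin-, Sca-1+, c-Kit+) and LK cells (Lin-, Sca-1-, c-Kit+), and on a GFP reporter driven by Ikaros regulatory sequence. The 4 gates were LSK GFPneg-lo, labelled haematopoietic stem cells (HSC); LSK GFPhi, labelled lymphoid-primed multipotent progenitors (LMPP); LK GFPneg, labelled megakaryocyte-erythroid progenitors (MEP); and LK GFPhi, labelled granulocyte-monocyte progenitors (GMP). Each gate and genotype had 3 arrays, 24 in all. All cells came from mice with the B-p-GFP-C reporter, a line on a C57BL/6 x C3H background, and the KO cells also carried the I74 Ikaros-null allele, a line on a C57BL/6 x 129SV background. Effects of the null allele and of the strain it came from cannot be told apart. The arrays of a group are titled biological replicates, and nothing says whether each held 1 animal or a pool, so the p-values measure the spread between these arrays. The gate uses the Ikaros reporter itself, so a KO gate need not hold the same cells as the WT gate of that name.

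Ribosomal proteins are made in equal amounts to one another, since each ribosome holds a single copy of nearly all of them. Their mRNAs are long-lived and among the most abundant in a cell, and most begin with a run of pyrimidines at the 5′ end, the TOP motif, through which growth signals switch their translation on and off. Output of ribosomal proteins is therefore set in large part by translation, which an array does not measure. Blood progenitors, erythroid ones above all, are sensitive to a shortage: loss of a single copy of RPS19 or of other members gives Diamond-Blackfan anaemia, loss of RPS14 contributes to the anaemia of the 5q- syndrome, and Rpl22 is needed by developing lymphocytes.

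The start sites of 6 genes are printed because the results turn on pairs of canonical gene and paralog (Rps27 and Rps27l, Rpl22 and Rpl22l1), on Rpl12, and because Rpl38 shows a plain TOP start. Each runs from 40 bases before to 20 bases after the RefSeq transcript start, 5′ to 3′ on the gene's strand, in build GRCm38.p6, with capitals marking every run of at least 6 pyrimidines.
Rps27 (chr3:90213629-90213688, minus strand): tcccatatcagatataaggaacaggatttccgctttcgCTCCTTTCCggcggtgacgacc
Rps27l (chr9:66946046-66946105, plus strand): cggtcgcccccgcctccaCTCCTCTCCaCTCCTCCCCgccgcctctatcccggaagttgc
Rpl22 (chr4:152325686-152325745, plus strand): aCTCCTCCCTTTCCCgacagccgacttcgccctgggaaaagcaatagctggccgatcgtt
Rpl22l1 (chr3:28805468-28805527, plus strand): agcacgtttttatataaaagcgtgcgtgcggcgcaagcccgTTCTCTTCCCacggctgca
Rpl12 (chr2:32961672-32961731, plus strand): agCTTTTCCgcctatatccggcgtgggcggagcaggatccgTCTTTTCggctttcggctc
Rpl38 (chr11:114668540-114668599, plus strand): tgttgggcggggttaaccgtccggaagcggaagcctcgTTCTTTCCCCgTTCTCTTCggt
Rps27l and Rpl22 have 2 starts each in the table, and the start with the longer pyrimidine run is shown. This choice favours long runs in these 2 genes, so run lengths are not compared between genes. The longest run is 9 bases in Rps27 and in Rps27l, 14 in Rpl22, 10 in Rpl22l1 and in Rpl38, and 7 in Rpl12. In Rpl22 and Rps27l the runs lie upstream of the annotated start. In Rps27, Rpl22l1, Rpl12 and Rpl38 a run spans or directly follows the start, and Rpl12 has another of the same length upstream.

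RefSeq promoter windows were found for 43 of the 49 genes. The letters CTTTC, on the gene's strand within 20 bases before to 30 bases after the start, were present in 14 of the 43 genes (32.6%), against 7.66% of 27025 mouse genes. On the opposite strand the same letters were found in 4 of 43 genes (9.3%) and in 7.3% of all genes. The longer CTTTCC, which contains CTTTC, was present in 8 of 43 genes (18.6%) against 2.83% of all genes, and in 1 of 43 on the opposite strand against 2.69%. Of the other pyrimidine strings, which overlap these, CTTTT was present on the gene's strand in 16.3% of members (5.98% of all genes), TTTCC in 30.2% (8.67%), CTTCC in 25.6% (12.1%), TCTTTC in 14% (2.27%) and CCTTTC in 18.6% (2.42%). On the opposite strand the shares of these 5 strings ran from 2.33% to 18.6% of members and from 2.12% to 14.2% of all genes. The letters TGGGAA, which include the GGGAA core bound by Ikaros, were found anywhere in the 300-base window in 6 of 43 genes (14%) on the gene's strand against 15.4% of all genes, and in 10 of 43 (23.3%) on the opposite strand against 15.6%. The Rpl22 sequence above holds a TGGGAA in lower case between its pyrimidine run and the start. In all, 8 strings were searched, chosen after seeing the data, and a match is a match of letters only.

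The targeted gene was checked first. The Ikzf1 probe set read 10.99 to 11.99 log2 units on the 12 WT arrays and 6.51 to 8.88 on the 12 KO arrays, without overlap in any gate, and KO minus WT was -3.63, -4.15, -3.45 and -4.34 in the HSC, LMPP, MEP and GMP gates (SE 0.36 each; limma, largest adjusted p 4.29e-06). Where these probes lie relative to the deleted part of the gene was not analysed here. The labelled populations were checked against markers. On WT arrays the mean of 6 measured stem cell markers was 10.62 to 11.02 in the HSC gate and 6.97 to 9.23 in the other gates, that of 7 megakaryocyte-erythroid markers was 11.43 to 11.54 in the MEP gate, and that of 6 granulocyte-monocyte markers was 12.18 to 13.21 in the GMP gate. The lists did not set every gate apart: the mean of 7 lymphoid markers was 10.74 to 10.86 in LMPP and 10.53 to 10.87 in GMP, megakaryocyte-erythroid markers were at 10.27 to 10.97 in HSC, and granulocyte-monocyte markers at 11.27 to 11.49 in LMPP. Means of markers of mature red cells (3 genes), B cells (3), T cells (4), macrophages (4) and neutrophils (5) stayed between 5.69 and 7.45 on all 24 arrays. That of 5 stroma and endothelium markers was 6.68 to 8.09. That of 3 plasma cell markers was higher, 7.89 to 10.54, with 10.01 to 10.54 in WT LMPP and 7.97 to 8.35 in KO LMPP. The difference between the 3′ and 5′ control probe sets of Actb, a sign of RNA or labelling quality, ran from 1.62 to 4.35 log2 units over the arrays. These are bulk samples, so fewer cells of a type and less RNA per cell cannot be told apart.

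Ribosomal protein genes were among the brightest and steadiest on the array. Of the 49, 40 had a probe set in the brightest 10% of genes, and 36 had a mean level above 12 log2 units, all on the probe set chosen for its brightness. The mean over the 49 genes lay between 11.98 and 12.19 on every array. The range between the highest and the lowest of the 8 group means had a median of 0.19 log2 units over the 49 genes, against 0.47 over all genes. Among genes brighter than 12 it was 0.17 for the 36 members and 0.44 for the others. Of these 36 members, 29 lay above 13, and levels above the bound were not matched between members and others. The 7 members with a chosen probe set between 8 and 12 had a median range of 0.45, looked at after seeing the data. The 24 genes with several probe sets had 56 further ones, looked at after seeing the data, and these were less steady: the median range was 0.21 for the 24 above 12 log2 units and 0.52 for the 19 between 8 and 12, where 10993 probe sets of other genes had 0.84. The part of a ceiling in the brightest probes was not tested. In 42 of 49 genes the range stayed under 0.5. The deposited values were normalised so that arrays share a common distribution, and a change of all ribosomal mRNAs relative to total RNA in step with the other bright mRNAs would not be seen.

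The steadiest chosen probe sets were those of core proteins of both subunits. Rpl13a, a large subunit protein, had group means of 13.75 to 13.81, and its SD over the 24 arrays, 0.037 log2 units, lay at the 0.01 percentile of all genes. Its other 3 probe sets had wider ranges, with group means of 12.01 to 12.52 on the widest. Rps3, a small subunit protein at the mRNA entry site, had group means of 13.78 to 13.83, the smallest range of all 49, while a dimmer probe set of the gene ran from 10.44 to 10.79. Rpsa, which also occurs as a laminin receptor at the cell surface, had a range of 0.07. Of the 49 genes, 25 had an SD among the lowest 10% of all genes.

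**Figure D1:**
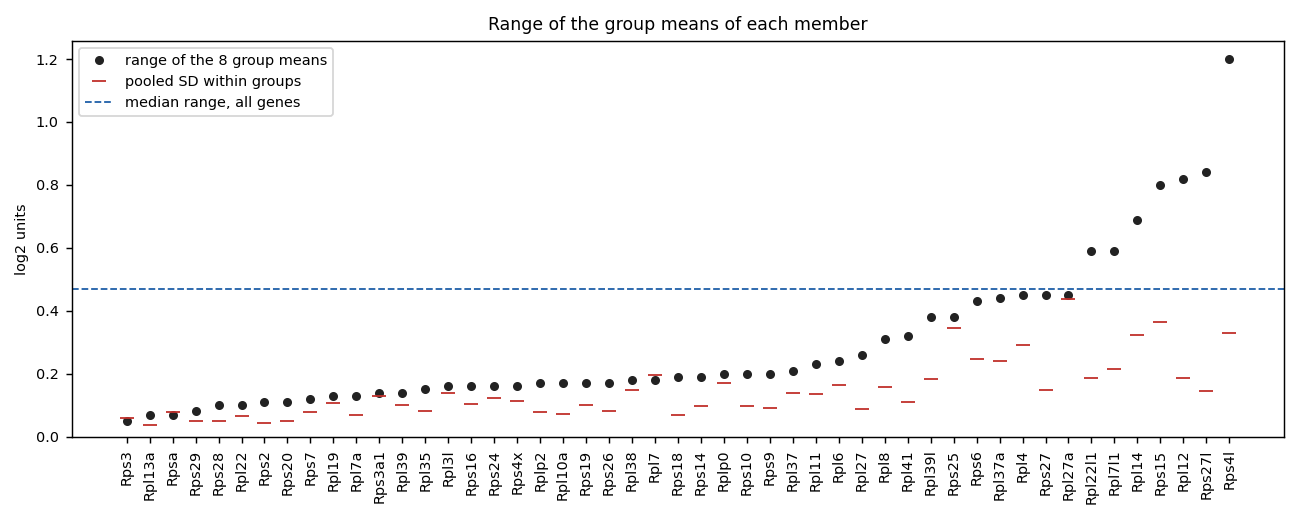
For each of the 49 genes, ordered along the horizontal axis, the black point is the range of its 8 group means and the red mark its pooled SD within groups, both in log2 units; the dashed line is the median range over all genes, 0.47. The 42 genes on the left lie under 0.5, and Rpl22l1, Rpl7l1, Rpl14, Rps15, Rpl12, Rps27l and Rps4l lie above the line.

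Of the 7 genes with a range above 0.5, 4 were paralogs. Rps4l, a paralog of Rps4x on another chromosome, had the widest range, 1.2 log2 units, at a dim mean level of 5.17 (13.26 percentile of genes). Rps27l followed with 0.84, Rpl12 with 0.82, Rps15 with 0.8 and Rpl14 with 0.69. The X-linked canonical gene Rps4x had a range of 0.16, Rpl22 one of 0.1 on its brightest probe set (10.62 to 11.62 on another) and Rps27, with group means of 7.28 to 7.73, one of 0.45. Among the genes named in this text, Rps15, Rpl14, Rpl27a, Rps25, Rpl27, Rpl37a, Rpl4, Rpl8 and Rps16 were chosen after their values were seen.

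Between HSC and MEP in WT mice, the comparison with the most changed genes, the ribosomal protein genes had a median difference of 0.00, and 2 paralogs rose. Rps27l, a p53-inducible copy of Rps27, read 11.81, 11.93 and 11.75 in the 3 HSC arrays and 12.54, 12.48 and 12.46 in the 3 MEP arrays. Each MEP array was above each HSC array, a difference of 0.66 log2 units (SE 0.12, 95% interval 0.41 to 0.91, limma adjusted p = 0.000299). Rpl22l1, the paralog that can take the place of Rpl22, read 12.12, 11.99 and 12.04 in HSC and 12.25, 12.60 and 12.60 in MEP. The groups did not overlap, and the difference was 0.44 (SE 0.15, adjusted p = 0.0352). This call did not hold without WT HSC array 1, 2 or 3, or without MEP array 2 or 3, in turn (adjusted p 0.0539 to 0.137), nor after a further quantile normalisation (0.0631).

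In all, 2 of 49 ribosomal protein genes were called at an adjusted p under 0.05 between MEP and HSC, where 27.1% of all genes were called. The median over all genes was 0.03, and the median absolute difference was 0.09, against 0.18 over all genes. The confidence intervals of 36 of 49 genes lay within 0.5 log2 units of 0, and those of 48 within 1. The canonical partners of the paralogs were not called: Rpl22 read 13.56 ± 0.05 in HSC and 13.47 ± 0.04 in MEP (SD, n = 3 each; interval of the difference -0.24 to 0.07) on its brightest probe set, and Rps27 read 7.60 ± 0.16 and 7.28 ± 0.10 (interval -0.58 to -0.07, adjusted p = 0.0545). The other probe sets of Rpl22 gave differences of 0.13 (SE 0.13) and -0.34 (SE 0.22), so no direction is given for it. Rpl14, of the large subunit, was 0.63 higher in MEP (SE 0.25) with an adjusted p of 0.0656.

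Arrays with the same number deviated together in this pair of groups. With the replicate number as a block, 7 of 49 genes were called, against 35.9% of all genes. Rps27l and Rpl22l1 were joined by the large subunit genes Rpl14 (0.63, SE 0.14, blocked adjusted p = 0.0018), Rpl4 (0.45, SE 0.14), Rpl12 (0.37, SE 0.14) and Rpl8 (0.25, SE 0.09), all higher in MEP, and by Rps27, which was lower (-0.32, SE 0.10). Rps27 is read by a single probe set, at the 51.51 percentile of genes. On the array, 1 more probe set carries its symbol together with others and was not analysed here. Centring each array on its median raised the median of all genes from 0.03 to 0.20 in this comparison. That of the ribosomal protein genes rose from 0.00 to 0.17, and 11 of 49 were then called, all higher. The share of all genes called under this scaling was not computed, so that count has no background beside it. After a further quantile normalisation the medians of all genes and of ribosomal protein genes were 0.07 and -0.04.

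Many other genes of protein synthesis were higher in MEP, and their lists are read against the 27.1% of all genes called. Of 35 genes of the nucleolus and ribosome assembly, 31 (88.6%) were higher in MEP and 0 lower, with a median difference of 0.75. Nolc1, a nucleolar chaperone of small nucleolar ribonucleoproteins, rose from 9.22 to 10.93 (difference 1.72, SE 0.21, adjusted p = 2.8e-06), and Nop56, of the box C/D complex that methylates ribosomal RNA, rose by 0.61 (SE 0.10). Of 16 genes of RNA polymerases I and III and their factors, which make ribosomal and 5S RNA, 8 (50%) were higher, with a median of 0.52. Among them Rrn3, the initiation factor of polymerase I, rose by 1.13 (SE 0.26). Growth control genes were mixed, with 3 of 16 higher and 2 lower (31.2%) and a median of 0.16. Mycn, a driver of ribosome synthesis, fell from 10.78 to 8.06 (-2.72, SE 0.36, limma adjusted p = 8.5e-06), while Larp1 rose by 0.91 (SE 0.20).

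Of 76 mitochondrial ribosomal protein genes, whose products form the separate ribosome of the mitochondrion, 54 (71.1%) were higher in MEP and 0 lower, with a median of 0.62. Mrps28 rose from 9.72 to 10.87 (1.15, SE 0.14, adjusted p = 2.48e-06). Of 12 translation initiation factors 7 (58.3%) were higher, such as Eif5b (1.86, SE 0.38). Of 17 elongation factors and other genes with TOP mRNAs 3 were higher, with a median of 0.20: Eef1d (0.74, SE 0.25), Eif3l (0.96, SE 0.29) and Nap1l1 (0.32, SE 0.08). That share, 17.6%, lay below the 27.1% of all genes. The medians of the assembly and mitochondrial lists were positive under all 3 scalings (0.75, 0.92 and 0.78 for assembly, 0.62, 0.79 and 0.53 for mitochondrial). The TOP list, which shares its mode of translational control with the ribosomal protein genes, had a smaller median than these 2 lists; the difference between lists was not tested.

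Other measures moved with this comparison. The mean of 11 cell division genes was 11.72 to 11.95 on the HSC arrays and 12.21 to 12.36 on the MEP arrays. The Actb 3′ minus 5′ difference was 2.35 to 4.01 in HSC and 1.63 to 2.46 in MEP. Their part in the results was not tested.

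**Figure D2:**
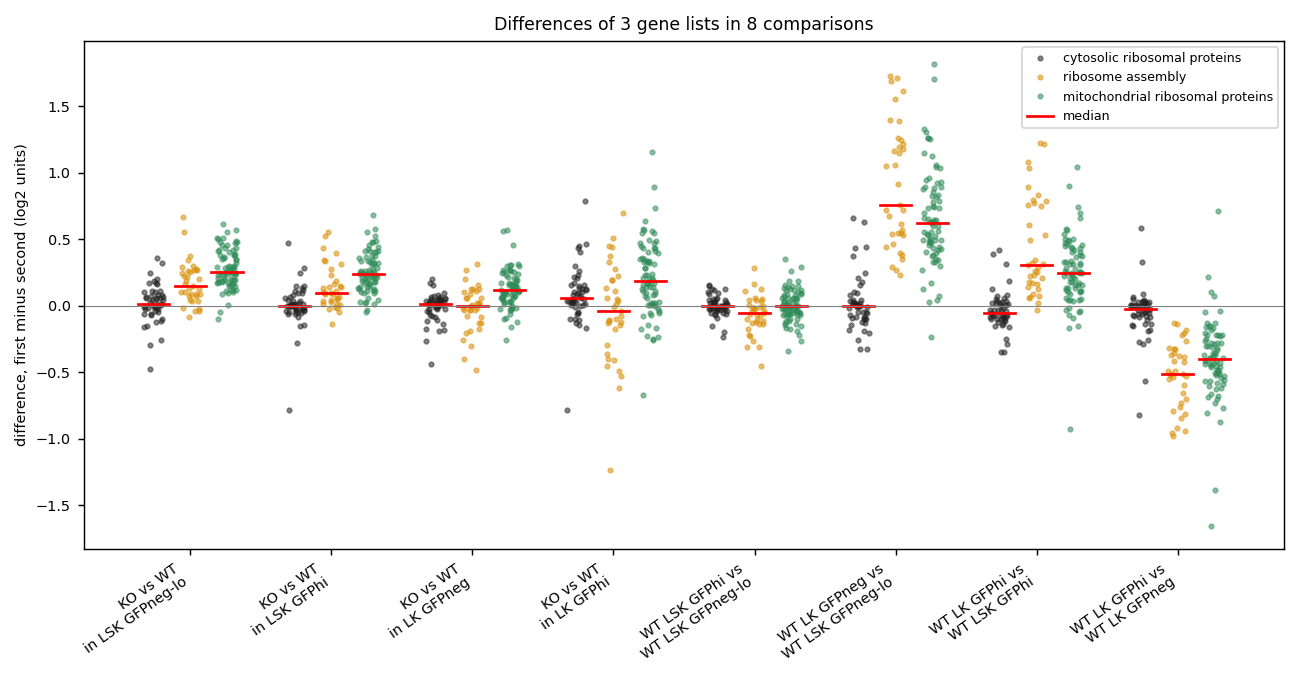
Each point is 1 gene, and the vertical axis gives its difference (first minus second group, log2 units) in each of 8 comparisons, for the 49 cytosolic ribosomal protein genes, the 35 assembly genes and the 76 mitochondrial ribosomal protein genes; red lines are medians. The cytosolic medians stay between -0.06 and 0.05, while the assembly and mitochondrial medians reach 0.75 and 0.62 in MEP against HSC and -0.51 and -0.40 in GMP against MEP.

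GMP and MEP in WT mice, the myeloid arms of the LK compartment, differed in 1 ribosomal protein gene of 49, while 18.6% of all genes were called. Rpl12, which sits beside the stalk on the large subunit, read 10.38, 10.24 and 10.71 in MEP and 9.55, 9.55 and 9.76 in GMP. Every GMP array lay below every MEP array, and the difference of -0.82 (SE 0.15, 95% interval -1.13 to -0.51, adjusted p = 0.000325) was called without each of the 6 arrays in turn (-0.92 to -0.69). In the KO the same step measured -0.43 on group means, against -0.82 in WT; the difference of the KO effect between the 2 LK gates was 0.39 (SE 0.21, adjusted p = 0.583). Rpl12 is read by a single probe set, and 2 more probe sets on the array carry its symbol together with others.

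The median over the 49 genes was -0.03 in GMP against MEP, against 0.00 over all genes, and 37 intervals lay within 0.5 of 0. Of the assembly genes 10 of 35 were lower in GMP and 0 higher, with a median of -0.51. Of the mitochondrial ribosomal protein genes 23 of 76 were lower and 1 higher, with a median of -0.40. Array numbers paired here as well, and with the replicate block 5 of 49 genes were called, against 25.9% of all genes: Rpl12, Rpl14 (-0.57, SE 0.14) and Rps27l (-0.29, SE 0.10) lower in GMP, and Rps27 (0.33, SE 0.10) and Rps4l (0.58, SE 0.20) higher. This comparison shares its 3 MEP arrays with that of MEP against HSC.

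Between LMPP and GMP in WT mice, 0 of 49 genes were called by limma, against 4.55% of all genes, and 2 had an unadjusted p under 0.05. The smallest adjusted p was that of Rps27l, 11.92, 11.75 and 11.76 in LMPP against 12.29, 11.97 and 12.36 in GMP. The groups did not overlap and the difference was 0.39 (SE 0.12, adjusted p = 0.0729). With the replicate block, whose numbers paired here, Rps27l was called (blocked adjusted p = 0.0123), as were 13.4% of all genes, and it was also called without GMP array 2. The median of the 49 genes was -0.06, against -0.03 over all genes. Of the assembly genes 2 of 35 were higher in GMP, Nolc1 (1.04, SE 0.21) and Ltv1 (1.23, SE 0.34), and of the mitochondrial genes 3 of 76 were higher and 1 lower.

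Between HSC and LMPP in WT mice, the first step towards the lymphoid lineage, 0 of 49 genes were called by limma, against 4.52% of all genes, and 0 had an unadjusted p under 0.05. Differences ran from -0.24 (Rpl7l1) to 0.15 (Rpl3l), with a median of 0.00, and 41 intervals lay within 0.5 of 0 and all 49 within 1. Of 35 assembly genes 0 were called, and of 76 mitochondrial genes 0, with 0 of either at an unadjusted p under 0.05. Mycn read 10.78 in HSC and 8.63 in LMPP (difference -2.15, SE 0.36, adjusted p = 0.000684). It was also lower in MEP than in HSC, as given above.

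Without the array number as a block, 0 of 49 ribosomal protein genes passed the test between KO and WT in each of the 4 gates. In the HSC gate 0 of 49 genes were called by limma, against 2.14% of all genes, with 3 at an unadjusted p under 0.05. In the LMPP gate 0 were called against 4.6%, with 3 at an unadjusted p under 0.05, and in the MEP gate 0 against 2.65%, with 0. In the GMP gate 0 were called against 9.56%, with 7 at an unadjusted p under 0.05; limma with a mean trend and robust moderation called 1, Rps4l, there, and with the replicate block 6 were called there, against 22.2% of all genes. Medians of KO minus WT were 0.01, 0.00, 0.02 and 0.05 in the HSC, LMPP, MEP and GMP gates, beside 0.03, 0.01, 0.04 and 0.07 over all genes. Over the 8 comparisons of 2 groups, 311 of 392 confidence intervals lay within 0.5 of 0 and 383 within 1. These intervals cover the spread between arrays only, and a probe set near its ceiling or near background can give a narrow interval whatever the mRNA does.

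The effect of Ikaros loss averaged over the 4 gates had a smaller error, and 4 of 49 genes were called, against 16.1% of all genes. Of these, 3 are paralogs: Rps4l fell, and Rpl7l1 and Rps27l rose. The other is Rpl41, which encodes the smallest ribosomal protein. With the replicate block, whose numbers do not pair the arrays here, Rpl14 (0.21, SE 0.07) and Rpl27 (0.12, SE 0.04) were called as well. The 16.1% belongs to the fit without the block, and no share with the block is given for this effect. The median over the 49 genes was 0.01, against 0.04 over all genes, and 46 intervals lay within 0.5 of 0. Markers moved with genotype too: in the LMPP gate the mean of stem cell markers was 8.78 to 9.23 in WT and 10.17 to 10.26 in KO, and that of lymphoid markers 10.74 to 10.86 and 9.05 to 9.49. Their part in the results was not tested.

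Rps4l was lower in the KO in all 4 gates. WT arrays read 5.52, 5.64 and 5.30 in HSC, 5.19, 5.08 and 5.90 in LMPP, 4.98, 5.31 and 5.39 in MEP, and 5.55, 5.82 and 6.06 in GMP. KO arrays read 4.61, 5.39 and 5.03 in HSC, 4.32, 5.18 and 4.33 in LMPP, 4.52, 5.08 and 4.77 in MEP, and 4.78, 5.05 and 5.26 in GMP. The genotypes overlapped in the first 3 gates and not in GMP. The mean effect was -0.62 (SE 0.13, interval -0.88 to -0.36, adjusted p = 0.00163), and it was called without each of the 24 arrays in turn (-0.69 to -0.56). The probe set is dim, at a level where a signal may be partly background, and Rps4l was among the 4 members left out when the dimmest 40% of genes were dropped. Its partner Rps4x, at 13.76 to 13.91 in the 8 groups, was not called in any comparison.

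Rpl7l1, a relative of Rpl7, was higher in the KO in all 4 gates on group means. In LMPP, WT arrays read 10.63, 10.61 and 11.04 and KO arrays 11, 11.27 and 11.43. In GMP, WT read 10.99, 10.44 and 11.09 and KO 11.09, 11.36 and 11.46. The mean effect was 0.34 (SE 0.08, adjusted p = 0.00905), or 0.36, 0.47, 0.05 and 0.46 in the HSC, LMPP, MEP and GMP gates. A second probe set of the gene gave 0.29 (SE 0.09) and the third 0.13 (SE 0.10), in a fit over all probe sets that was added after seeing the data.

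Rps27l rose on average by 0.21 (SE 0.06, adjusted p = 0.0189), with KO minus WT of 0.32, 0.29, 0.15 and 0.09 in the HSC, LMPP, MEP and GMP gates. KO arrays read 12.42, 12 and 12.05 in HSC and 12.18, 12.02 and 12.09 in LMPP. All of these lay above the WT arrays of the same gate, which reached 11.93 and 11.92. Its 3 probe sets gave 0.21, 0.20 and 0.21 for the mean effect and 0.66, 0.52 and 0.75 for MEP against HSC, so they moved together. With arrays centred on their medians the mean effect was 0.15 and was not called (adjusted p = 0.163).

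Probe sets of Rpl41 disagreed. The brightest gave a mean KO effect of 0.17 (SE 0.05, adjusted p = 0.0185) and another 0.14 (SE 0.07), while the other 2 gave -0.48 (SE 0.14) and -0.41 (SE 0.13). In the HSC gate the latter pair read 10.96 and 11.94 in WT and 10.05 and 11.17 in KO. No direction is given for Rpl41. Rps24, a Diamond-Blackfan gene with 6 probe sets, was level on its brightest (12.64 to 12.80 in the 8 groups), whereas another of its probe sets ran from 8.74 in KO HSC to 7.37 in KO MEP. Of the 49 genes, 15 were read by probe sets whose names mark probes shared with other sequences (_x_at or _s_at), and signal of near-identical copies cannot be told apart there.

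**Figure D3:**
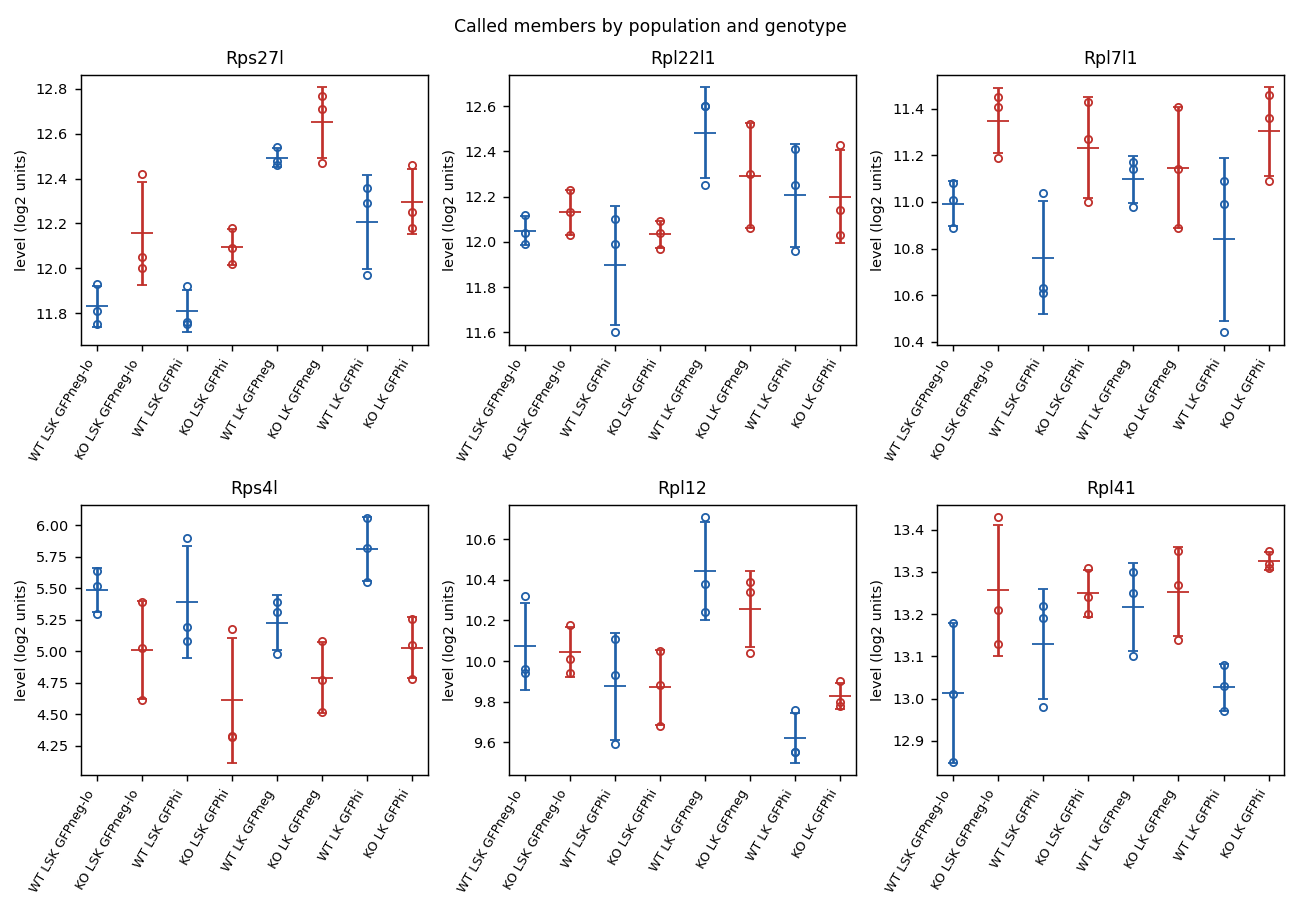
Level (log2 units) on each array, with group mean and SD (n = 3), for the 6 genes called in any comparison, over 4 gates in WT (blue) and KO (red); vertical axes differ and do not start at 0. Rps27l is highest in the MEP gate in both genotypes (12.50 and 12.65), the group mean of Rps4l is lower in the KO in each gate, and Rpl12 is lowest in WT GMP (9.62).

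The GMP gate had the widest spread of KO effects, from -0.78 (Rps4l) to 0.79 (Rps15). Array numbers paired WT with KO here. Of the 6 genes called with the replicate block, Rps4l was lower (-0.78, SE 0.20), and Rps15 (0.79, SE 0.23), Rpl7l1 (0.46, SE 0.13) and Rpl27 (0.26, SE 0.08) were higher. The other 2 were Rpl37a and Rpl41, whose probe sets disagreed. The brightest of Rpl37a gave 0.44 (SE 0.13) and its others 0.00 (SE 0.19) and 0.10 (SE 0.21). The brightest of Rpl41 gave 0.30 (SE 0.08), and its others 0.46 (SE 0.15), -0.25 (SE 0.28) and -0.28 (SE 0.25). The other probe sets were fitted without the block. Other measures differed between these groups too. The Actb 3′ minus 5′ difference was 1.80 to 3.04 in WT GMP and 2.94 to 4.26 in KO GMP, and the mean of 7 megakaryocyte-erythroid markers was 7.40 to 7.98 and 8.55 to 9.76. That of 6 stem cell markers was 7.22 to 7.87 and 8.96 to 9.18. That of 7 lymphoid markers was 10.53 to 10.87 and 8.23 to 9.11, that of 5 neutrophil markers 5.90 to 6.16 and 6.78 to 7.45, and that of 3 plasma cell markers 9.13 to 9.54 and 8.17 to 8.33. Their part in the result was not tested. The median of the 49 genes turned from 0.05 to -0.07 with arrays centred on their medians, as did that of all genes, from 0.07 to -0.05.

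The effect of Ikaros loss was also compared between gates. By limma, 0 of 49 genes were called between the LMPP and HSC gates (0 at an unadjusted p under 0.05), against 0.313% of all genes, and between the GMP and MEP gates 0 of 49 (0 at an unadjusted p under 0.05), against 2.5%. The median differences of effect were -0.02 and 0.06. The intervals were wider, with 34 and 32 of 49 within 0.5 of 0. The effect on Rps15 was 0.79 in GMP and 0.08 in MEP, a difference of 0.71 (SE 0.39, interval -0.10 to 1.53, adjusted p = 0.596).

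With genes grouped by symbol and paralogs included, calls fell in both subunits, at shares below those of all genes. Of the 24 large subunit genes 1 (4.17%) was called in MEP against HSC and 1 (4.17%) in GMP against MEP. Of the 23 small subunit genes these numbers were 1 (4.35%) and 0. Over all genes the shares were 27.1% and 18.6%. In the mean KO effect 2 of 24 (8.33%) and 2 of 23 (8.7%) were called, against 16.1% of all genes. Their medians were 0.06 and -0.01 (-0.01 and -0.07 with arrays centred on their medians). The stalk genes Rplp0 and Rplp2 had group means of 13.23 to 13.43 and 13.40 to 13.57 and were not called in any comparison. The 11 Diamond-Blackfan genes gave 0 limma calls in each of the 11 comparisons, with at most 1 at an unadjusted p under 0.05, where 0.313% to 27.1% of all genes were called. With the replicate block, Rps27 was called in MEP against HSC and in GMP against MEP, and Rpl27 in KO against WT GMP and for the mean KO effect, as given above. Rps19, the gene most often mutated in that disease, read 13.40, 13.48 and 13.32 in WT HSC and 13.38, 13.34 and 13.31 in WT MEP, with a difference of -0.06 (interval -0.25 to 0.14). Rps14, the 5q- syndrome gene, had group means of 13.51 to 13.70, and Rpl11, which binds Mdm2 when ribosome assembly fails, of 12.80 to 13.03. Rps6, the target of S6 kinase, ran from 10.68 ± 0.23 in KO MEP to 11.11 ± 0.42 in KO GMP (SD, n = 3).

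The paralogs known from other tissues had dim probe sets. Rpl3l, the heart and skeletal muscle paralog of Rpl3, had group means of 4.62 to 4.78, and Rpl39l, the testis-enriched paralog of Rpl39, of 6.20 to 6.58. Neither was called in any comparison. Dim probe sets were not confined to paralogs: Rps16, a small subunit gene that is not a paralog, had group means of 4.57 to 4.73. Rpl39, the partner of Rpl39l, had group means of 7.38 to 7.53. A dim probe set does not by itself show that an mRNA is absent.

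The other protein synthesis lists are read against the 16.1% of all genes called for the mean effect of Ikaros loss. Averaged over the gates, 27 of 76 (35.5%) mitochondrial ribosomal protein genes rose and 0 fell, with a median of 0.23 (0.16 with arrays centred, 0.22 after further quantile normalisation), the leading one being Mrpl51 (0.42, SE 0.05, adjusted p = 1.01e-05). The shares called in the assembly (11.4%), TOP (5.88%) and initiation factor (0%) lists lay below that of all genes, and that of the polymerase I and III list (18.8%) near it. Of 35 assembly genes 4 rose and 0 fell: Nhp2 (0.38, SE 0.08), Bysl (0.41, SE 0.11), Bop1 (0.34, SE 0.09) and Eif6 (0.28, SE 0.08). Of the 16 polymerase I and III genes 2 rose and 1 fell, of the 17 TOP genes 1 fell (Pabpc1, -0.10, SE 0.03), and of the 12 initiation factors 0 were called by limma (1 at an unadjusted p under 0.05). The median of the assembly genes was 0.07, and 0.01 with arrays centred. By gate, assembly genes were called in GMP alone, where 1 of 35 was called (2.86%, against 9.56% of all genes). It was Nop58, lower in the KO (-1.23, SE 0.36, limma adjusted p = 0.0334).

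Among 16 growth control genes 3 were called (18.8%, near the 16.1% of all genes). Eif4ebp1, the mTOR target that restrains cap-dependent translation, rose by 0.40 on average (SE 0.10), and Tsc1 and Rictor, regulators of mTOR, fell by 0.26 (SE 0.05) and 0.37 (SE 0.08). By gate, Eif4ebp1 (1.11, SE 0.20) and Rictor (-0.92, SE 0.17) were called in GMP alone, and Tsc1 (-0.41, SE 0.09) in HSC alone. Mycn, not called for the mean effect, was lower in KO MEP, at 6.54 against 8.06 in WT (-1.52, SE 0.36, limma adjusted p = 0.0237). The KO effect on Eif4ebp1 also differed between the GMP and MEP gates (1.13, SE 0.28, limma adjusted p = 0.0323). Of 8 genes of ribosomal stress and p53, 2 rose (25%): Pmaip1, which encodes the pro-apoptotic protein Noxa, by 2.53 (SE 0.14, adjusted p = 7.26e-11), and Phlda3 by 0.16 (SE 0.05). Pmaip1 was called in each gate and Phlda3 in MEP alone (0.64, SE 0.09). The KO effect on Phlda3 differed between the GMP and MEP gates (-0.58, SE 0.13, limma adjusted p = 0.0164). Rps27l, itself p53-inducible, rose as described above, while Cdkn1a and Ccng1, the classic p53 targets on the list, were not called for the mean effect.

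Some ribosomal protein genes varied as much between arrays of a group as between groups. Rpl27a, of the large subunit, had a pooled SD within groups of 0.436 and a range of group means of 0.45. In WT HSC it read 8.13, 9.16 and 8.67, and in KO GMP 8.31, 9.16 and 9.36. The array numbered 1 was the lowest in all 8 groups for Rpl27a and also for Rpl14, which read 9.99, 10.48 and 10.21 in WT HSC and 9.70, 10.59 and 10.73 in KO HSC. Over all genes, 725 (3.99%) had array 1 lowest in all 8 groups. What the number stands for was not found in the labels used here.

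Rps15, of the small subunit, had array 1 lowest in 2 of 8 groups. It read 12.18, 12.79 and 11.67 in WT HSC, where the Actb 3′ minus 5′ difference was 2.67, 4.01 and 2.35. The array highest for Rps15 was the one highest for the Actb measure in 5 of 8 groups, and the lowest was the lowest in 5 of 8. The same counts were 6 and 3 of 8 for Rpl27a, 4 and 3 for Rpl14, and 7 and 3 for Rps25. The part of RNA quality in these values was not tested. A second probe set of Rps15 read 11.37, 11.43, 11.07 and 11.08 in WT HSC, LMPP, MEP and GMP, beside 12.21, 12.25, 11.89 and 11.90 for the first. In the KO it read 11.70, 11.73, 11.15 and 11.92 in the same order, beside 12.38, 12.40, 11.97 and 12.69.

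**Figure D4:**
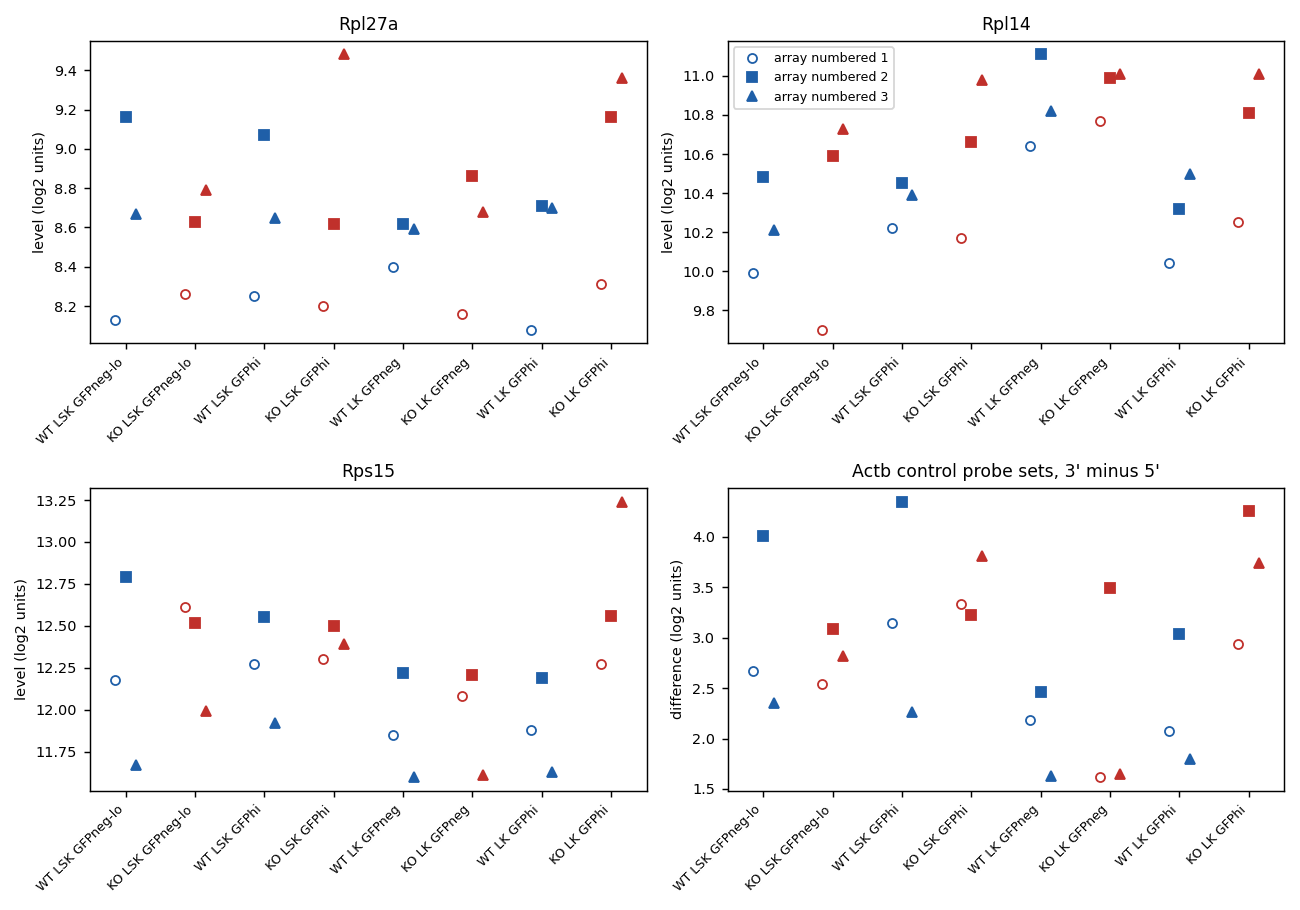
Level of Rpl27a, Rpl14 and Rps15 (log2 units) and the Actb 3′ minus 5′ control difference (log2 units) on each array, by group (WT blue, KO red) and array number (symbols); axes do not start at 0. Array 1 is the lowest in all 8 groups for Rpl27a and Rpl14, and the highest Rps15 array is the highest Actb array in 5 of 8 groups.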

How the data were processed

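The deposited table holds log2 signal of 45101 probe sets on 24 Affymetrix arrays (one colour, 3 per group), which the authors made with RMA, per the submitters' processing notes; RMA corrects background, quantile-normalises and summarises probes. For its version, the sources used here give none. Values ran from 3.33 to 14.52, and the number of arrays limits the precision. Control probe sets (64) and those with several symbols (932) or none (9160) were left out. The probe set with the highest mean was kept per gene, which gave 18193 genes, the symbols coming from the GEO platform annotation.

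Differences were computed in R 4.3.3 by the package limma 3.58.1 (a linear model per gene with moderated variances, 1 fit of 8 group means, 16 residual and 3.27 prior degrees of freedom), with two-sided p-values adjusted by Benjamini and Hochberg over all genes within each comparison and a threshold of 0.05. Standard errors are the moderated ones, and the scripts were tested on simulated data. An exact permutation test of 3 against 3 arrays cannot go below 0.1. There were 11 comparisons: KO against WT in each gate, 4 between WT gates, the mean KO effect and 2 differences of KO effects. Array numbers were taken to pair the samples of a comparison where every correlation of the residuals of same-numbered arrays was over 0.1; the lowest was 0.171 for MEP against HSC, 0.55 for GMP against MEP, 0.582 for GMP against LMPP and 0.175 for KO against WT in GMP, but 0.0238 in LMPP and -0.0891 for the mean KO effect.

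Genes were named by rule: up to 6 called members with the largest rise and fall per comparison, a panel of members with known roles, and up to 4 called genes per direction of each protein synthesis list by adjusted p, besides Ikzf1. Other members were named after their values were seen, as stated where they appear. The alternatives were the replicate block, the compared groups alone, other probe set choices, a filter on dim genes, other scalings and moderation, and leaving out each array. The members, lists, comparisons and alternatives were chosen with earlier results of these data known. Promoter sequences are RefSeq's, build GRCm38.p6, from a table that matched 43 genes by symbol.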

Additional observations from a re-analysis of the deposited data

How the results depend on the processing

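Over the 11 comparisons and their alternatives, left-out arrays aside, the count of called ribosomal protein genes stayed within 1.5 times of the main count in 71 cases and moved further in 16. With the replicate number as a block, counts became 2 (KO against WT in LMPP, where the numbers do not pair the arrays; Rpl7l1 and Rps4l), 6 (KO against WT in GMP), 7 (MEP against HSC), 1 (GMP against LMPP) and 5 (GMP against MEP); the block changed no other count by more than 1.5 times. KO against WT in GMP gave 2 with the mean of all probe sets, 1 with trend and robust moderation, 1 with centred arrays and 2 after further quantile normalisation. MEP against HSC gave 4 without the dimmest 40% of genes, 11 with centred arrays and 1 after further quantile normalisation. GMP against LMPP gave 1 without _x_at and _s_at probe sets (Rps24, lower) and 1 with the mean of probe sets (Rps27l). GMP against MEP gave 4, and the mean KO effect 2, with centred arrays. Apart from the replicate block where given above, no share of all genes called stands beside these counts. They are not read as results about the family.

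Centring moved medians to -0.07 (KO against WT in GMP), 0.17 (MEP against HSC), -0.13 (GMP against MEP) and -0.04 (the difference of KO effects between GMP and MEP), together with the median of all genes; these shifts come from the scaling itself. Rpl41 turned to -0.48 without _x_at and _s_at probe sets and to -0.15 with the mean of its probe sets, since its probe sets disagree, and was 0.11 and not called with centred arrays.

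Leaving out 1 array at a time gave 0 to 1 called genes for KO against WT in LMPP (Rps4l, without KO array 2) and in GMP (Rps15, without KO array 1), 1 to 3 for MEP against HSC (1 without WT HSC array 1 or WT MEP array 3), 0 to 1 for GMP against LMPP (Rps27l, without WT GMP array 2) and 4 to 5 for the mean KO effect. Probe brightness limits Rps4l, Rpl3l, Rps16 and Rpl39l, which lay among the dimmest 40%. The fit of each probe set on its own, and the ranges of probe sets that were not chosen, were chosen after seeing the data. For the other changes of count, the cause was not tested.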
